A study of Saccharomyces cerevisiae with 50 samples.

Results

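The passage from DNA synthesis and G2 into mitosis was followed in the second cell cycle of budding yeast by setting the samples taken 110, 115 and 120 min after release from alpha factor against those taken at 90, 95 and 100 min. These samples were chosen by their time labels, with earlier results of these data known. The time point of 105 min, which lies between the windows, was left out, and the number of genes called depended on this choice. The samples of both windows make up 12 of the 50 arrays of the series and 6 of its 25 time points. All cells were of the laboratory strain W303. They were held with the mating pheromone alpha factor, released into YEPD, a rich glucose medium, and sampled every 5 min, and the RNA of each sample was total RNA. Every sample was hybridised against RNA of an unsynchronised YEPD culture on 2 arrays, one with the sample in the dye Cy3 and one with it in Cy5. The 2 arrays of a time point repeat the measurement of 1 RNA and were averaged, so n is 3 time points in each window. No label names a second culture, and the p-values therefore measure only the spread between neighbouring time points of 1 course. The windows of the first cycle that serve for comparison are 50, 55 and 60 min against 30, 35 and 40 min, from the same release. In whole cultures, fewer cells in a stage and less RNA per cell cannot be told apart.

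Budding yeast passes transcription from one group of genes to the next as it divides. Cyclin and DNA synthesis genes are made at the end of G1, histone genes during DNA synthesis, and the CLB2 cluster, named for a mitotic cyclin and activated by Mcm1, Fkh2 and Ndd1, on the way into mitosis. Genes for leaving mitosis, for the replication licensing complex and for daughter cell separation follow. The fall of histone and G1 cyclin messages and the rise of the CLB2 cluster are the textbook marks of entry into mitosis.

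A value below is a level, the log2 ratio of sample over unsynchronised reference, or a difference, the mean level at 110 to 120 min minus that at 90 to 100 min. The ratio's base and its direction were inferred, as described with the processing, and every log2 value, fold and direction rests on that reading. A gene is said to rise or fall only where limma gave a Benjamini-Hochberg adjusted p of at most 0.05 over all 6204 open reading frames. Of these frames 326, or 5.25%, passed, with 153 higher (2.47%) and 173 lower (2.79%) at 110 to 120 min. All 326 differed in the same direction in each dye orientation alone, as did 4820 of the 6204 frames. In none of the 326 did the dye-averaged time points of the windows overlap. Without regard to the test, 1314 frames lay wholly higher and 1050 wholly lower. The test used the mean of the orientations at these same time points, so neither trait is separate support for the calls. In 49 of the 326 frames the difference was at least 1 log2 unit. Taken alone, the arrays with the sample in Cy3 called 213 frames (3.43%) and those with the sample in Cy5 called 54 (0.870%), of which 166 and 54 were among the 326. Of the 326 frames, 36 passed in each orientation alone. The count depended on single time points. It was 0 by limma without 115 min (1427 frames at an unadjusted p under 0.05), without 90 min (1313) or without 95 min (1327), 88 without 110 min, 151 without 100 min and 1021 without 120 min. A limma fit that also held the first-cycle windows called 1077 frames (17.4%) for the same contrast, 297 of them among the 326.

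**Figure D1:**
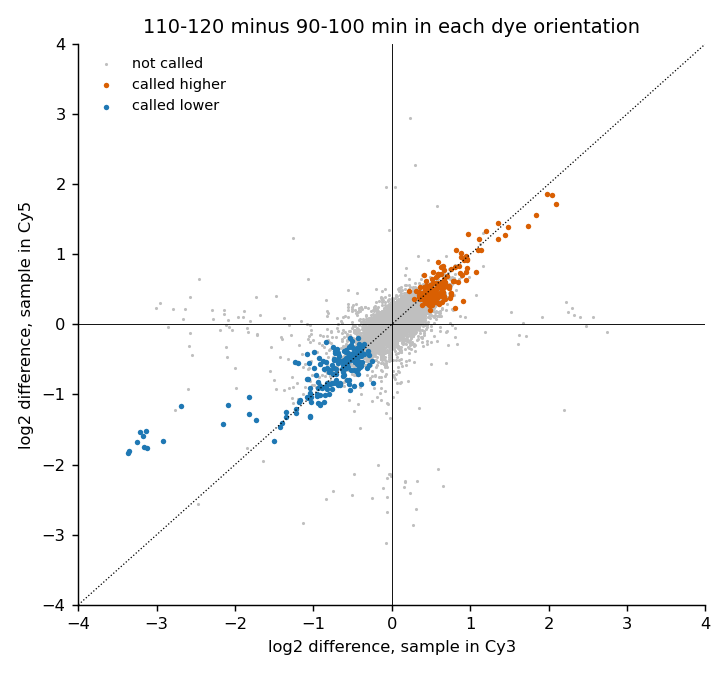
Difference of each open reading frame between 110 to 120 min and 90 to 100 min (log2), with the sample in Cy3 (horizontal) and with the sample in Cy5 (vertical). The frames called higher (orange) and lower (blue) lie in the quadrants where both orientations agree in sign; grey frames did not pass, the dotted line marks equal differences, and 2 frames lie outside the axes.

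The sample labels give times and no stages. The S-phase markers followed the stages assigned here to the windows, and the mitotic ones did so only in part. All 8 core histone genes fell, and the G1/S markers CLN1, CLN2, PCL1 and RNR1 fell too. Among the mitotic genes fixed as markers, CDC20, HOF1 and CHS2 rose. CLB2 itself had levels of -0.11, -0.36 and 0.35 at 110, 115 and 120 min, against -0.43, -0.06 and 0.44 at 90, 95 and 100 min. Its windows overlapped, and the difference of -0.02 (95% interval -0.63 to 0.59, adjusted p 0.97) did not pass. The related cyclin CLB1 had a difference of 0.70 (adjusted p 0.15), the transcription factor gene SWI5 0.46 (0.21) and the polo kinase gene CDC5 0.49 (0.20), and none of them passed. Of the genes that mark the exit from mitosis, SIC1, EGT2, ASH1, PCL9 and CTS1, none passed.

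The CLB2 cluster already had increasing levels within the earlier window. Of its 32 measured genes, 28 had a higher level at 95 than at 90 min and again at 100 than at 95 min, as did 24.3% of all frames. The mean level of the list was 0.35, 0.28 and 0.52 at 110, 115 and 120 min, against -0.51, -0.23 and 0.13 at 90, 95 and 100 min. At 105 min, which entered no window and whose Cy5 array carries another date in its title than the Cy5 arrays of the windows, it was -0.38. CLB2 then had -0.99 with the sample in Cy3 and -1.42 with it in Cy5, while HST3 lay at -6.64, the deposited limit, in Cy3 and at 0.39 in Cy5. Between the windows 9 of the 32 genes rose and none fell, with a median difference of 0.65, against 0.014 over all frames. The remaining 23 did not pass. A difference above 0 was found in 27 of the 32, and in 3248 of the 6204 frames.

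**Figure D2:**
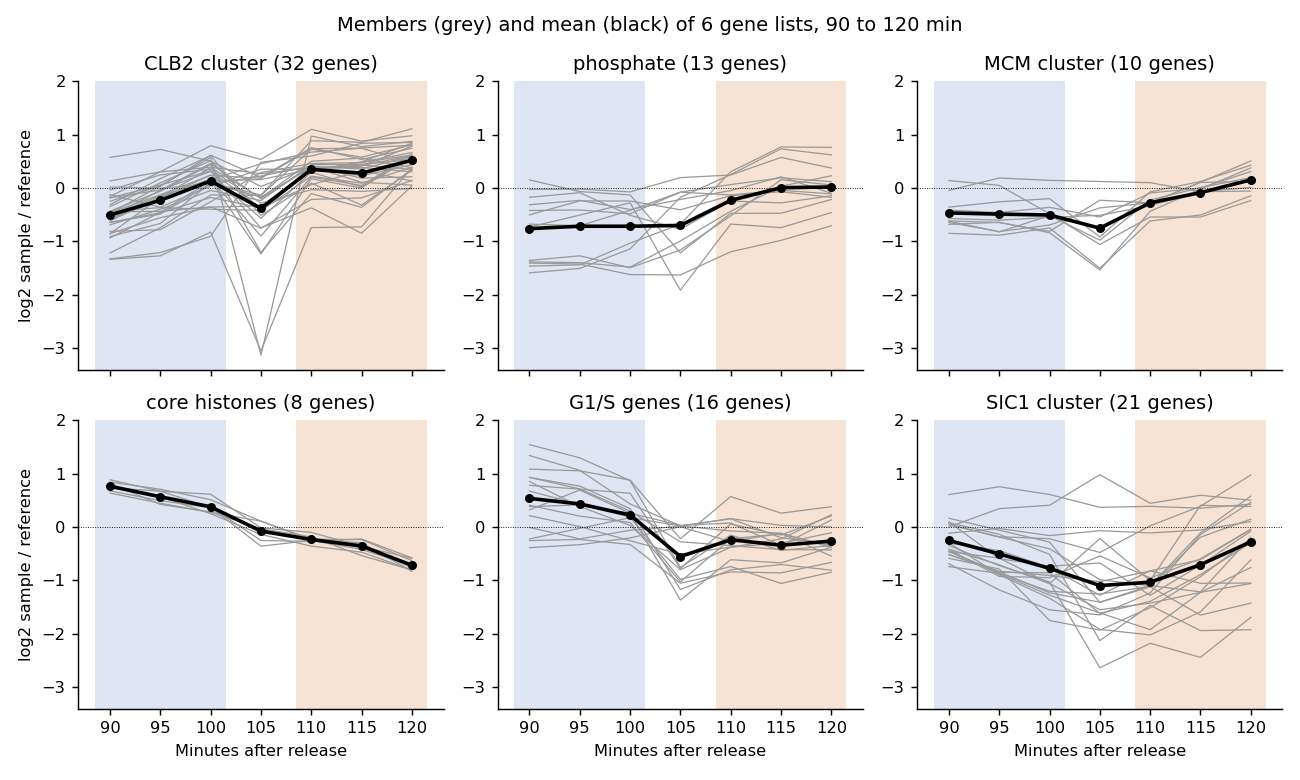
Level (log2 sample over reference) of each member (grey) and the list mean (black) against minutes after release for 6 gene lists; orange shading marks 110 to 120 min, blue shading 90 to 100 min, and 105 min entered neither window. The mean of the CLB2 cluster is 0.52 at 120 min and -0.51 at 90 min, that of the core histones is lower at each later time, and that of the SIC1 cluster is, over these times, lowest at 105 min.

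A pair of cytokinesis genes of the cluster rose. CHS2, the chitin synthase that builds the primary septum, had levels of 0.88, 0.85 and 1.11 at 110, 115 and 120 min, against -0.91, -0.66 and 0.10 at 90, 95 and 100 min. Every later time point was above every earlier one, by 1.44 ± 0.25 on average (standard error, 2.71-fold, adjusted p 0.034). HOF1, an F-BAR protein of the bud neck, had 0.73, 0.58 and 0.81 in the later window, against -1.22, -0.74 and -0.13 in the earlier one, a difference of 1.40 ± 0.25 (adjusted p 0.037). In both genes the later time points lay close together (SD 0.14 for CHS2 and 0.12 for HOF1, n = 3), while the earlier ones were spread more widely (SD 0.52 for CHS2 and 0.54 for HOF1, n = 3), with levels that increased from 90 to 100 min. MYO1, the myosin of the contractile ring, and IQG1, its scaffold, had differences of 0.70 and 0.64 and did not pass (adjusted p 0.070 for each). Of 16 cytokinesis and septin genes, CHS2 and HOF1 rose, BNI5, a septin-binding protein, fell by 0.68, and 13 did not pass; the list's median was 0.11.

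The list of 18 anaphase and mitotic exit genes moved in both directions. CDC20, the activator of the anaphase-promoting complex, averaged 0.49 ± 0.17 at 110 to 120 min and -0.59 ± 0.25 at 90 to 100 min (SD, n = 3 each). It was 2.11-fold higher (adjusted p 0.024). SPO12, which promotes the release of the Cdc14 phosphatase from the nucleolus, had levels of 0.28, 0.64 and 0.58, against -0.99, -0.83 and -0.54, a rise of 1.28. MOB1 and DBF2, subunits of a kinase of the mitotic exit network, rose by 0.81 and 0.70. PDS1, the securin that Cdc20 marks for destruction, and ESP1, the separase that securin holds, fell by 0.76 and 0.56. SLK19, which acts with separase, fell by 0.98, and BFA1, part of the brake on mitotic exit, fell by 0.93. LTE1, which promotes exit, fell by 0.38 (adjusted p 0.047). The group's median was 0.03, with 4 genes higher, 5 lower and 9 not passing, CDC14 among the last at -0.03.

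**Figure D3:**
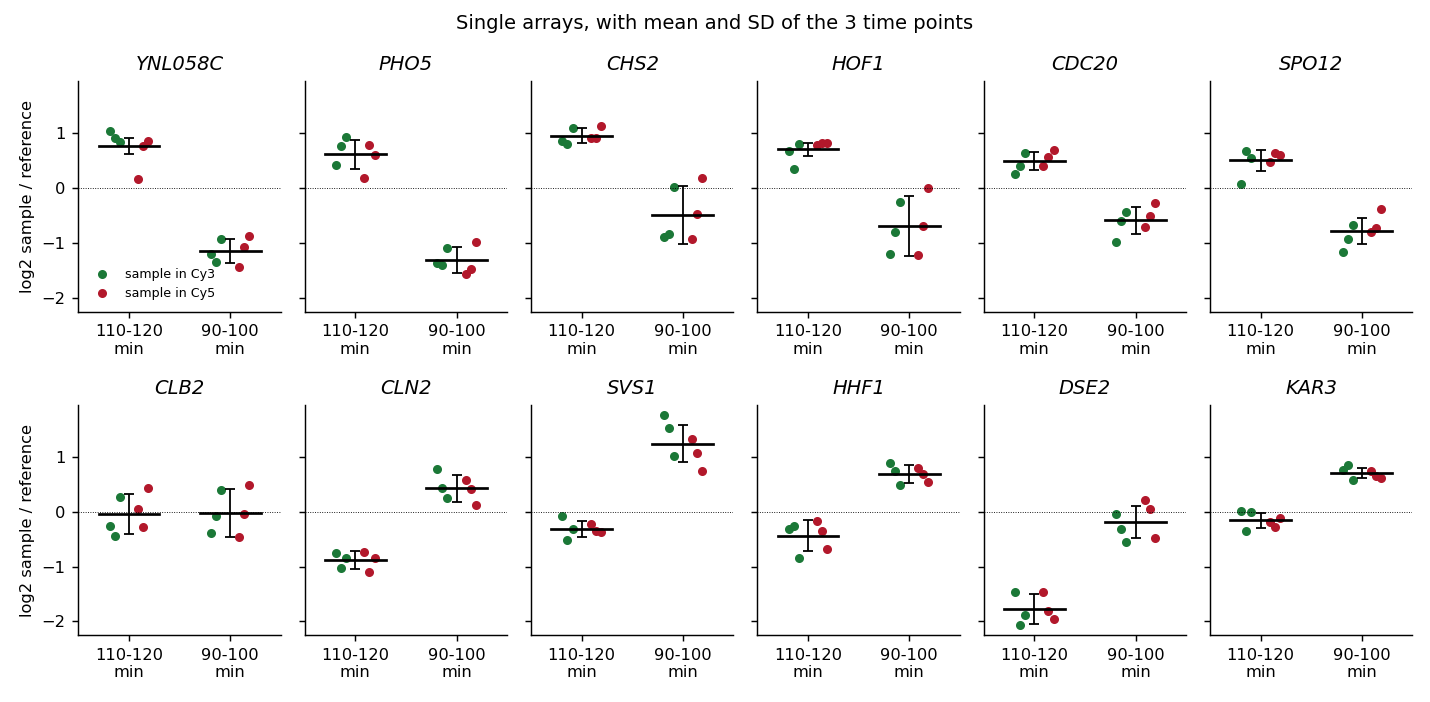
Level (log2 sample over reference) of 12 genes on each array at 110 to 120 min (left of each panel) and 90 to 100 min (right), with the sample in Cy3 (green) or Cy5 (red), shown in time order; bars give the mean and SD of the 3 dye-averaged time points. YNL058C, PHO5, CHS2, HOF1, CDC20 and SPO12 lie higher in the later window, CLB2 overlaps, and CLN2, SVS1, HHF1, DSE2 and KAR3 lie lower.

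The rest of the CLB2 cluster that rose were KIN3, a NIMA-related kinase (0.95), PMP1, a regulator of the plasma membrane proton pump (0.85), IRC8 (0.88), AIM20 (0.85), YML119W (1.13) and YNL058C (1.91). YNL058C had levels of 0.60, 0.84 and 0.85 at 110, 115 and 120 min, against -1.33, -1.21 and -0.90 at 90, 95 and 100 min. It had the smallest adjusted p of all frames, 0.012, and rose by 2.09 with the sample in Cy3 and by 1.72 with it in Cy5. Its neighbour OCA2 rose by 0.36 and EIS1, next to HOF1, by 1.16. EIS1 and NCE102 both belong to the eisosome, a furrow of the plasma membrane. NCE102 rose by 1.70 ± 0.25, but of the 11 genes listed for the proton pump and eisosome only it and PMP1 passed. The pump gene PMA1 had a difference of -0.23 (adjusted p 0.45), with PMA2, whose sequence is close to it, at -0.38.

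Acid phosphatase genes gave the largest of the rises that passed. The phosphatases they encode are secreted and free phosphate at the cell surface, and in yeast they are known for a peak in mitosis. PHO5 had levels of 0.30, 0.77 and 0.76 at 110, 115 and 120 min, against -1.46, -1.44 and -1.03 at 90, 95 and 100 min. PHO3, its neighbour on the chromosome, had 0.25, 0.73 and 0.62, against -1.59, -1.50 and -1.14. The differences were 1.92 and 1.94 (3.78-fold and 3.85-fold, adjusted p 0.017 for both). PHO12 and PHO11 rose by 1.36 and 1.27. These are pairs of closely similar sequences, and the array may not separate the members of a pair. SPL2, an inhibitor of low-affinity phosphate uptake, rose by 0.72 and PHO86, which helps the transporter Pho84 leave the endoplasmic reticulum, by 0.34. In all, 6 of 13 phosphate genes rose and none fell, with a median of 0.44. PHO84 itself, the high-affinity transporter, had a difference of -0.12, and the vacuolar phosphatase PHO8 one of -0.37 (adjusted p 0.084).

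YGP1, a cell wall glycoprotein, rose by 1.57, with levels of 0.65, 1.07 and 1.45 against -0.30, -0.68 and -0.56. Of 20 genes for mating and the pheromone response in MATa cells, 3 rose, against 2.47% of all frames. GPA1, the G protein alpha subunit of the pheromone pathway, rose by 0.95, MFA1, a precursor of the a-factor pheromone, by 0.94 and STE6, its exporter, by 0.91. The other 17 did not pass, including MFA2 (1.14, adjusted p 0.051) and the receptor gene STE2 (0.72, 0.096). Of the 20, 12 had a higher level at 115 than at 110 min and again at 120 min, as did 11.8% of all frames.

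The MCM cluster holds the replication licensing genes. MCM3 and MCM4, subunits of the replicative helicase, rose by 0.67 and 0.65, and the other 8 of 10 did not pass, among them MCM5 (0.83, adjusted p 0.054), MCM2 (0.44, 0.054) and CDC6 (0.43, 0.087). The list's median was 0.46, and 9 of its 10 genes had increasing levels over 110, 115 and 120 min, as did 11.8% of all frames. MCM3 had levels of -0.28, 0.10 and 0.12 in that window, against -0.62, -0.65 and -0.81 in the earlier one.

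Core histone messages fell in all 8 genes, with a median of -1.03 and a range from -1.12 for HHF1 to -0.82 for HTB1. HHF1, a histone H4 gene, had levels of -0.24, -0.31 and -0.77 at 110, 115 and 120 min, against 0.84, 0.71 and 0.51 at 90, 95 and 100 min, and was 2.18-fold lower (adjusted p 0.025). The mean over the 8 genes was lower at each later time point, with -0.23, -0.36 and -0.72 in the later window and 0.76, 0.57 and 0.38 in the earlier one. HHO1, the linker histone, fell by 0.78. Other variants and chaperones such as HTZ1 (0.16) and ASF1 (-0.27) did not pass, 13 of 14 in that list. The 8 genes lie in 4 divergent pairs and are closely similar copies within each histone type, so they are not 8 independent measurements.

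G1/S genes were also lower in the later window, 8 of 16 of them, with a median of -0.57 and none higher. SVS1, a cell wall protein, had levels of -0.15, -0.44 and -0.35, against 1.54, 1.29 and 0.87, a fall of 1.55. CSI2 fell by 1.45 and CLN2, the G1 cyclin, by 1.31. CLN2 averaged -0.88 ± 0.16 at 110 to 120 min and 0.43 ± 0.24 at 90 to 100 min (SD, n = 3 each, adjusted p 0.020). PCL1, a cyclin of the Pho85 kinase, fell by 1.04, EXG1, a glucanase of the cell wall, by 0.90, CLN1 by 0.67, MSB2, an osmosensor, by 0.60 and RSR1, a GTPase of bud site choice, by 0.52. The S-phase cyclins CLB5 (0.16) and CLB6 (-0.47) did not pass.

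DNA replication genes fell in 6 of 39 cases, against 2.79% of all frames, and rose in none, with a median of -0.29. RNR1, the large subunit of ribonucleotide reductase, had levels of -1.03, -1.19 and -0.87, against 0.20, 0.01 and -0.35, a fall of 0.98. RFC1, the large subunit of the clamp loader, fell by 0.93, CDC21, thymidylate synthase, by 0.83, CTF18, of an alternative clamp loader, by 0.81, CDC45 by 0.56 and RAD27, the flap nuclease, by 0.53. Cohesin followed, with the ring subunits IRR1, MCD1 and SMC3 and the ring-associated PDS5 falling by 0.73, 0.62, 0.59 and 0.51. In the limma fit with the first-cycle windows IRR1 passed (adjusted p 0.021), while MCD1 (0.12), SMC3 (0.052) and PDS5 (0.11) did not. The fourth ring subunit, SMC1, had a difference of -0.76 and did not pass (adjusted p 0.13), and none of the condensin genes SMC2, SMC4, BRN1, YCS4 and YCG1 passed.

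Cell cycle regulators and spindle genes that changed were mostly lower. SWE1, the kinase that restrains the mitotic cyclin-dependent kinase, fell by 0.73, and HSL1 and KCC4, kinases of the bud neck that act on that checkpoint, fell by 0.62 and 1.14. CLB3, a B-type cyclin, fell by 0.42, while the other 5 of 6 B-type cyclins did not pass. Of 17 transcription regulators TOS4 alone fell, by 0.80. KAR3 and CIN8, spindle motor proteins, fell by 0.86 and 0.84, and NDL1, which works with dynein, rose by 0.63. SPC97, BBP1 and SPC29 of the spindle pole body fell by 0.66, 0.56 and 0.36, 3 of 18 genes in that list. IPL1, the Aurora kinase, OKP1, of the inner kinetochore, and DAM1, of the microtubule-binding ring, fell by 0.74, 0.70 and 0.54, 3 of 31 kinetochore and checkpoint genes. Over all frames 2.79% were called lower. By limma with the sample in Cy3 alone, DAM1 (-0.24, adjusted p 0.45) and HSL1 (-0.39, 0.20) did not pass. With it in Cy5 alone both passed, at -0.84 and -0.85. CLB3 and SPC29 passed in neither orientation alone.

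The SIC1 cluster, expressed from the end of mitosis into G1, divided in time. Over 90 to 120 min its mean level was lowest at 105 min, at -1.10. It was lower still in the first cycle, at -1.76 at 50 min and -1.69 at 40 min, on arrays of other dates. In the later window 13 of 21 genes had increasing levels from time point to time point, against 11.8% of all frames, and in the earlier one 18 of 21 had decreasing levels, against 15.5%. DSE2, a glucanase-like protein of daughter cell separation, had levels of -1.47, -1.94 and -1.92 at 110, 115 and 120 min, against 0.08, -0.14 and -0.51 at 90, 95 and 100 min, a fall of 1.58. SCW11, another wall enzyme, fell by 1.40 and DSE1 by 1.34. ASH1, the daughter-specific repressor, had levels of -1.23, -0.14 and 0.46, against -0.69, -1.18 and -1.55. Its windows overlapped (difference 0.83, adjusted p 0.23), although its levels increased within the later window and decreased within the earlier one. EGT2 had -2.02, -1.59 and -0.62, against -0.30, -0.89 and -1.33, with a difference of -0.57 that did not pass.

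Metabolic and growth lists were measured as well. In methionine synthesis MET3, ATP sulfurylase, rose by 0.95, MET1 by 0.66 and MET10, of sulfite reductase, by 0.42, 3 of 15 genes. In ribosomal protein genes none of 18 passed, with a median difference of 0.23. Of the 18 differences 17 were above 0, as were 3248 over the 6204 frames. The later window lay wholly higher in 12 of the 18, against 1314 of all frames. In the fit with the first-cycle windows 5 of the 18 were called higher, against 582 of all frames. None passed among 18 ribosome biogenesis genes, 16 stress genes and 7 hexose transporters. HXK2, hexokinase, fell by 0.56, the only call among 16 glycolytic genes. QCR6, of the respiratory chain, rose by 0.42 and RPN2, of the proteasome, by 0.45, 1 call each among 24 and 31 genes. Neither gene passed by limma in Cy3 alone (adjusted p 0.066 and 0.080) or in Cy5 alone (0.15 and 0.17). Over all frames 2.47% were called higher and 2.79% lower, so single calls in lists of this size are near the share of all frames.

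The 12 largest falls of all belonged to 12 frames whose levels ran together. YBR012W-A had levels of -3.33, -3.62 and -2.34 at 110, 115 and 120 min, against -0.59, 0.47 and -1.36 at 90, 95 and 100 min. The difference was -2.61 ± 0.50 (standard error, adjusted p 0.041), with -3.37 where the sample was in Cy3 and -1.84 where it was in Cy5. With the sample in Cy5 alone its windows overlapped, with -2.13 at 120 min and -2.42 at 100 min, and the adjusted p was 0.17. None of the 12 frames passed in Cy5 alone (adjusted p 0.15 to 0.21), and each passed in Cy3 alone. The other 11, YAR010C, YML040W, YMR051C, YJR028W, YBL005W-A, YMR046C, YDR170W-A, YJR026W, YFL035C-A, YBL101W-A and YCL020W, had differences from -2.58 to -1.62. Across the 14 arrays from 90 to 120 min each correlated with YBR012W-A at r of 0.987 or more, a description over arrays that share their RNA in pairs. The falls are therefore not 12 separate measurements, and no source used here gives these frames a function. YFL035C-A is listed in the gene table as an older name of MOB2. Outside the 12 frames, SOR2, ALD3 and HXT13 had the highest r with YBR012W-A, at 0.977, 0.970 and 0.949. HXT13, a sugar transporter gene, fell by 1.55, and SOR2 (-0.83) and ALD3 (-1.11) did not pass. Of genes named in other paragraphs, PFF1, BFA1 and KCC4 had r of 0.854, 0.842 and 0.812 with YBR012W-A. Whether the differences of these genes are separate from those of the 12 frames was not tested.

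Coding length moved with the result. Over the 5704 frames with a length, the Spearman correlation of the difference with coding length was -0.205, as a description across genes. The median coding length was 952.5 bases for frames called higher, 1533 for those called lower and 1233 for the rest. Levels correlated with length most at 105 min (-0.376), 115 min (-0.293) and 110 min (-0.261), and little at 120 min (-0.071) and 100 min (0.016). With a trend on length removed from each array, a choice made after seeing the data, 403 frames passed. Among them were 280 of the 299 called frames that have a length. The CLB2 cluster kept a median of 0.65, but other lists moved. The proton pump and eisosome list went from 0.38 to 0.21, kinetochore and checkpoint genes from -0.16 to -0.24 and core histones from -1.03 to -1.17. The part of length in single differences was not tested.

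The same passage in the first cycle, 50 to 60 min against 30 to 40 min, served as a comparison in time points that the second-cycle windows do not use, although both cycles share the reference RNA. Apart from the Cy3 array of 60 min, the arrays of the first-cycle windows carry other dates in their titles than those of the second-cycle windows. Differences between the cycles therefore cannot be told apart from differences between array dates. In the fit of all 4 windows, the second cycle had 1077 frames called, 582 higher and 495 lower, and the first had 728 (11.7%), 263 higher and 465 lower. Without 30, 35, 55 or 60 min the first-cycle count was 399, 348, 359 or 397. Of the 326 frames called from the second-cycle windows alone, 129 were called in the same direction in the first and 10 in the opposite one. Across all frames the differences of the cycles correlated at r of 0.350. The CLB2 cluster's median was 0.65 in the second cycle and 1.26 in the first. A smaller change in the second cycle was found in 29 of its 32 genes, and in 2940 of the 6204 frames. In the fit of all 4 windows 10 of the 32 genes were called higher and 1 lower in the second cycle. In the first cycle 26 were called higher and 1 lower. The core histones' median was -1.03 in the second cycle and -2.38 in the first, and the change was smaller in the second for each of the 8. HTB1, for example, fell by 0.82 in the second cycle and by 2.32 in the first. The phosphate list, in contrast, had medians of 0.44 and 0.31, and PHO5 rose by 1.92 in the second cycle and by 1.83 in the first.

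**Figure D4:**
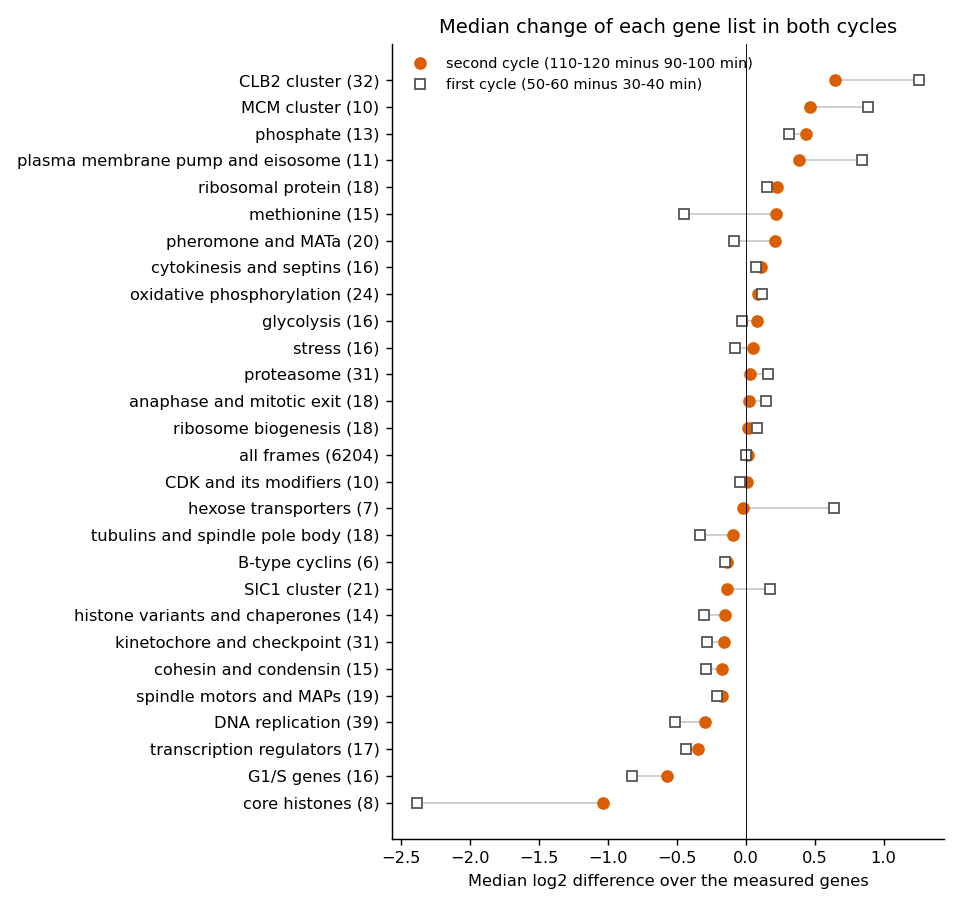
Median log2 difference over the measured genes of each list (number of genes in brackets) for the second cycle, 110 to 120 minus 90 to 100 min (orange circles), and the first cycle, 50 to 60 minus 30 to 40 min (open squares), ordered by the second cycle. The core histones (-1.03 and -2.38) and the CLB2 cluster (0.65 and 1.26) lie farther from 0 in the first cycle, and methionine genes lie on opposite sides (0.22 and -0.45).

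A test of the second-cycle change minus the first-cycle change called 190 frames (3.06%), 131 above 0 and 59 below. This count too depended on single time points, with 9 without 55 or without 95 min, 18 without 60 min, whose Cy3 array carries another date in its title than those of 30 to 55 min, and 775 without 120 min. No core histone passed, with adjusted p between 0.053 and 0.14, and of the CLB2 cluster MRH1 alone did. MRH1, a plasma membrane protein, had levels of -0.74, -0.73 and 0.38 at 110 to 120 min and -1.33, -1.27 and -0.83 at 90 to 100 min, a difference of 0.78 that did not pass, whereas in the first cycle it rose by 3.19. POL30, the sliding clamp of replication, had a second-cycle difference of -0.14 (adjusted p 0.61) and fell by 2.04 in the first cycle.

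Methionine genes differed between the cycles. By the test of the second-cycle change minus the first-cycle change, 6 of 15 were called above 0 (MET1, MET3, MET6, MET8, MET10 and MET17) and none below. Over all frames 131 of 6204 were called above 0. In size, without regard to direction, 12 of the 15 changes were smaller in the second cycle, as were 2940 of the 6204 frames. MET3 had levels of 0.93, 0.87 and 1.27 at 110 to 120 min and -0.09, 0.01 and 0.32 at 90 to 100 min; in the first cycle it had 1.46, 0.77 and 0.52 at 50 to 60 min and 1.34, 1.88 and 1.76 at 30 to 40 min. The list's median was 0.22 in the second cycle and -0.45 in the first, where 7 of 15 genes fell. MET1 rose by 0.66 in the second cycle and fell by 0.55 in the first. OPI3, a methyltransferase of phosphatidylcholine synthesis, had levels of 0.10, 0.36 and 0.20 at 110 to 120 min and -0.40, -0.40 and -0.41 at 90 to 100 min. It rose by 0.62 in the second cycle and fell by 1.19 in the first, and it and MET1 passed the test of the difference under each of the 16 alternatives run.

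**Figure D5:**
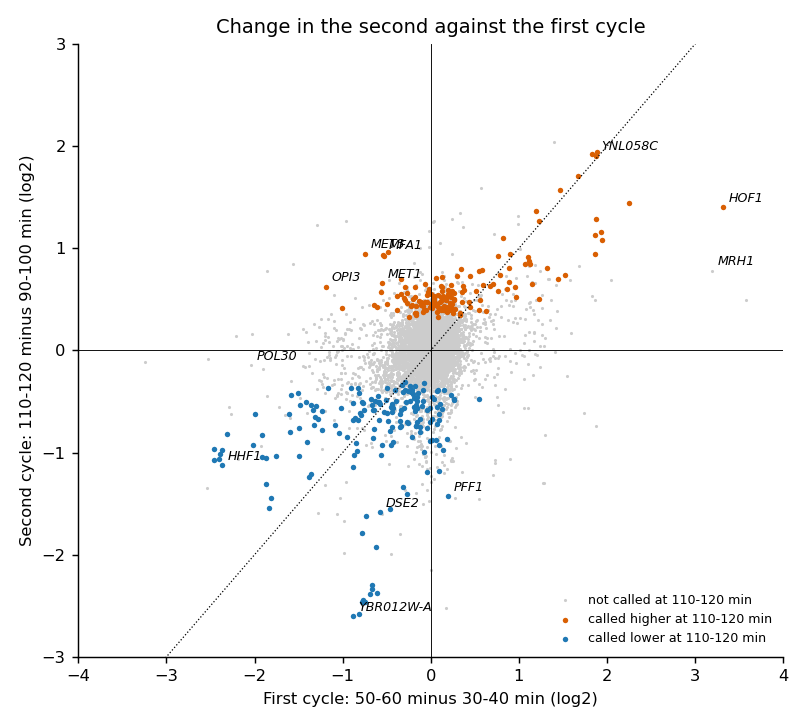
Difference of each frame in the second cycle, 110 to 120 minus 90 to 100 min (vertical), against the first cycle, 50 to 60 minus 30 to 40 min (horizontal), both log2; orange and blue mark frames called higher and lower in the second cycle, and the dotted line marks equal changes. HHF1 fell by 1.12 in the second cycle and 2.37 in the first, and OPI3, MET1 and MET3 lie above 0 in the second cycle and below 0 in the first.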

How the data were processed

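Expression was measured on 2-colour arrays. The deposited value table holds 1 log10 ratio per open reading frame and array as made by the authors. Their normalization and centring are not given in the sources used here. For the base, a log10 scale was inferred from values that end exactly at -2 and 2, a 100-fold limit, and the direction, Cy5 over Cy3, was inferred from the negative correlation of each dye-swap pair as deposited and from pheromone genes at 0 min, where FUS1 came to 4.14 and 3.29 log2 in the turned orientations. Of 6217 lines 13 were left out, and of 6204 frames 5704 were found by locus tag in the R64 table of genes, used for names, neighbours and coding lengths only, while 500 kept their deposited name. In the 12 arrays 36 values were missing and 104 were at that limit, none in a called frame. Turned pairs correlated at 0.316 to 0.557 in the windows, and array medians lay between -0.00486 and 0.0181 log10 units. The number of arrays limits the precision.

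Each array was put on the log2 scale as sample over reference, and the pair was averaged. Windows were compared with limma 3.58.1 in R 4.3.3 (lmFit and eBayes, Benjamini-Hochberg over all frames, threshold 0.05), with first-cycle and between-cycle contrasts from a fit of 12 time points in 4 windows. An exact permutation test of 3 against 3 time points cannot go below 0.1 and was not used. All arrays of 1 orientation in the second-cycle windows carry 1 date, so no date term was fitted. The fit of 4 windows had no date term either, although the dates differ between the cycles. On simulated data with 200 of 6204 frames changed, the second-cycle comparison recovered 44.5% at 0.5, 84.0% at 1 and 98.0% at 2 log2 units. The simulated noise was independent between frames and time points, without effects shared over an array and without trends within a window. These shares hold for such data only, and recovery in the real data was not measured.

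Named are the 12 largest changes each way with the same sign in both orientations and no overlap, up to 4 passing members of each list each way, the 5 largest each way between cycles, and any list member with its outcome; HXT13, SOR2, ALD3 and OCA2 were added after their values were seen. The 27 lists hold 461 measured genes. The comparison and the lists were chosen with earlier results of these data known. For 1 gene no values are given here, but counts and medians include it. Alternatives were each orientation alone, all arrays with time as a block, centring, quantile normalization, limit values missing, 105 min added to a window, a trended robust fit, each time point left out and a coding length trend removed.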

Additional observations from a re-analysis of the deposited data

Results flagged for a closer look

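The genes below were singled out because their change differed between the cycles by limma's test of the second-cycle change minus the first-cycle change (adjusted p at most 0.05 over all frames). The difference was above 0 for POL30 (1.90), OPI3 (1.81), MET3 (1.69), STR3, a lyase of sulfur amino acid synthesis (1.64), MFA1 (1.48), MET1 (1.21) and MET10 (1.04). It was below 0 for MRH1 (-2.41), PFF1 (-1.62), REB1, a DNA-binding regulator (-1.31), YOR135C (-1.14), YJL086C (-1.11), RFC1 (-1.02), DSE2 (-1.01) and OKP1 (-0.69). All 15 kept their sign under the 16 alternatives run. OPI3 and MET1 passed under each, with adjusted p up to 0.040 and 0.045, while POL30 passed under 5 and PFF1 under 2. Without 60 min, whose Cy3 array carries another date, the adjusted p was 0.013 for OPI3, 0.022 for MET1, 0.047 for STR3 and between 0.051 and 0.086 for the other 12.

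MFA1 had levels of -0.79, -0.19 and -0.31 at 110 to 120 min and -1.36, -1.54 and -1.20 at 90 to 100 min. In the first cycle it had -1.28, -0.93 and -1.01 at 50 to 60 min and -0.30, -0.54 and -0.75 at 30 to 40 min. DSE2 lay near -4 throughout the first-cycle windows, from -4.24 to -3.49, and above that in the second. Its fall of 1.58 in the second cycle and of 0.58 in the first thus start from different levels. Apart from the Cy3 array of 60 min, the arrays of the first-cycle windows carry other dates than those of the second.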

How the results depend on the processing

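The number of frames called in the second cycle, 326, was 213 with the sample in Cy3 alone, 54 with it in Cy5 alone, 1188 with all 12 arrays and time as a random block, 1077 in the 4-window fit, 576 after quantile normalization, 493 with values at the limit missing, 609 with a trended and robust fit, 72 with 105 min in the later window and 0 with it in the earlier one (524 at an unadjusted p under 0.05). Leaving out 1 time point gave 0 to 1021. The share of called frames that were higher was 46.9%. It was 35.2% with the sample in Cy5 alone, 37.5% with 105 min in the later window and 37.1% without 100 min, and 52.7% with the trended and robust fit, 53.4% without 110 min, 54.0% in the 4-window fit, 54.5% without 120 min and 55.6% with time as a random block. The count between cycles, 190, was 38 in Cy3, 62 in Cy5, 18 without 60 min, and 9 to 775 when 1 time point was left out. The first-cycle count, 728, was 412 in Cy3, 397 without 60 min, and 348 to 822 when 1 time point was left out. POL30's second-cycle difference, -0.14 and not called, became 0.10 with 105 min in the later window and lay between -0.30 and 0.00050 when 1 time point was left out, with 0.00050 without 120 min. The other 85 named genes kept their sign in each alternative that gave a value. Over all 86 genes, 563 of 1458 values under alternatives no longer passed. In the 4-window limma fit these included HOF1 (adjusted p 0.22), PDS1 (0.069), HSL1 (0.091), CLB3 (0.69) and SPC29 (0.20). Of the 8 core histones 5 passed in that fit. The cause was not tested. No paired analysis was possible because the labels carry no replicate numbers that tie time points of the windows to each other.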

Other observations

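Of the 6204 frames 326 (5.25%) were called, and pairs of neighbouring genes that were called in the same direction numbered 26. They included the 4 divergent histone pairs HTA2 with HTB2, HHF1 with HHT1, HTB1 with HTA1 and HHT2 with HHF2, as well as PHO3 with PHO5, EIS1 with HOF1 and CLN2 with BBP1. A run of 3 adjacent genes fell together, SCW10, a cell wall glucanase (-1.21), FKS3, related to glucan synthase (-0.90), and GAS1, a glucanosyltransferase of the wall (-1.02). MHT1 and MMP1, neighbours for S-methylmethionine use, rose by 0.53 and 0.96. These pairs were chosen after their values were seen. The number of all neighbouring pairs is not given here, so the count of 26 has no share beside it. Whether neighbours were called together more often than other genes was not tested.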
